A study of Homo sapiens with 12 samples.

Results

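U-HO1 and L-1236 are established cell lines of classical Hodgkin lymphoma, and the 6 arrays compared here, 3 of each line, came from cells that carried a control shRNA without function. They were taken by their sample titles from the 12 arrays of the study, which also holds 3 arrays of each line labelled with an shRNA against GATA-3. All cells were transduced, kept in culture for 3 days and then sorted by GFP, and the RNA of 25000 GFP-positive cells per sample was amplified before it was labelled and hybridised to a whole-transcript array. The medium was RPMI 1640 for L-1236 but IMDM for U-HO1, otherwise with the same supplements, so that line and medium cannot be told apart in any value below. The 3 samples of a group are called independent in the study's design text, without a statement of how, and a p-value here measures the spread among arrays, which may be technical. Each line is 1 line of tumour cells in culture and stands for itself, not for a class of tumours.

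Of 32321 probe sets, 19158 carry exactly 1 gene symbol, and these stand for 18404 genes, each read by its brightest probe set over the 12 arrays. A level is the deposited value, read as log2. A difference is the mean of U-HO1 minus the mean of L-1236 on that scale, so that a difference of 1 is a 2-fold ratio and a positive value means higher in U-HO1. A gene was called when limma gave it an adjusted p under 0.05, after Benjamini-Hochberg adjustment across all probe sets, and a ratio of at least 2-fold. The arrays read the RNA of many cells together, so that fewer cells with a transcript and less of it per cell cannot be told apart. The background of the arrays is not known, and a ratio against a dim level is a ratio of measured values only.

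The tumour cells of classical Hodgkin lymphoma, called Hodgkin and Reed-Sternberg cells, descend from germinal-centre B cells but have shut down most of the B-cell programme and express genes of other blood lineages. They carry CD30, depend on NF-kB and JAK-STAT signalling, and draw T cells and other immune cells around them with chemokines and cytokines. How far single lines depart from this common picture, in surface molecules, transcription factors, metabolism and non-coding RNA, is what a comparison of lines can describe.

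Arrays of the same line correlated across probe sets at 0.988 to 0.992 (6 pairs), and arrays of different lines at 0.939 to 0.951 (9 pairs). The mean level of 8 Hodgkin markers was 9.13 to 9.32 on the L-1236 arrays and 9.95 to 10.16 on the U-HO1 arrays, with 4 members called higher and 1 lower in U-HO1. A longer list of 36 measured Hodgkin genes, described below, did not separate the lines by its mean. Its means were 9.242 to 9.478 in L-1236 and 9.235 to 9.372 in U-HO1, with a median difference of -0.146. The mean of 5 measured B-cell markers was 7.45 to 7.66 in L-1236 and 6.57 to 6.72 in U-HO1, with 2 called lower. Lists of T-cell, myeloid, fibroblast and erythroid markers had 0 called members each by limma, while 0, 1, 0 and 0 reached an unadjusted p under 0.05. Their means spanned 6.21 to 6.35 and 6.19 to 6.41 for T cells, 6.44 to 6.56 and 6.35 to 6.53 for myeloid cells, 6.46 to 6.54 and 6.41 to 6.53 for fibroblasts and 6.51 to 6.62 and 6.54 to 6.66 for erythroid cells, in L-1236 and U-HO1 respectively. GATA3, the target of the shRNA on the other arrays, read 10.29, 10.69 and 9.95 in L-1236 and 11.24, 10.90 and 10.24 in U-HO1 on the control arrays, a difference of 0.48 (SE 0.31, adjusted p = 0.323 by limma). On the arrays labelled GATA-3 shRNA it read 10.80, 9.998 and 10.24 in L-1236 and 11.07, 10.12 and 10.22 in U-HO1. These levels overlap those of the control arrays, so these arrays serve below only as a separate set of the same lines and in the estimate of the spread.

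On the control arrays 1286 of 18404 genes were called (6.99%), 695 higher (3.78%) and 591 lower (3.21%) in U-HO1. These percentages are the background against which the counts of gene groups below are to be read. The gene lists were chosen with earlier results of these data known, and no group was tested against the background. An adjusted p under 0.05 alone was reached by 5886 genes (32.0%), 16.4% higher and 15.6% lower, an unadjusted p under 0.05 by 20.5% higher and 19.7% lower, and the levels of the lines did not overlap for 7414 (40.3%). A ratio of at least 4-fold was called for 159 genes higher and 151 lower, and one of at least 8-fold for 54 and 45. The median difference over all genes was -0.0023. The plot of difference against mean level shows called genes at dim and at bright mean levels.

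**Figure D1:**
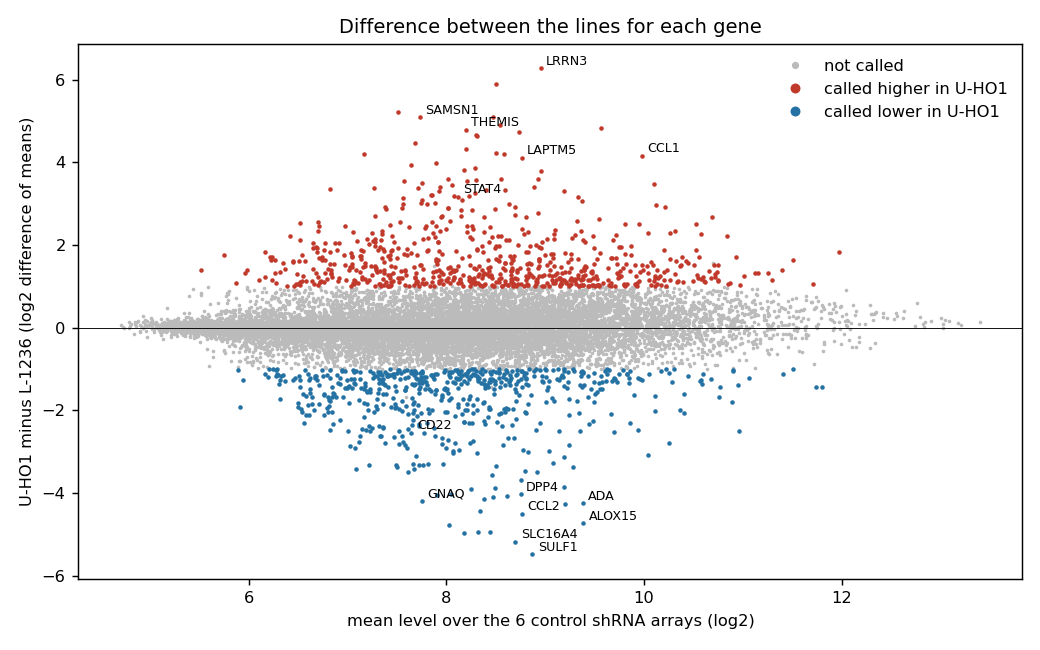
Each point is 1 of 18404 genes, with its mean level over the 6 control shRNA arrays (log2) on the horizontal axis and the difference, U-HO1 minus L-1236 (log2), on the vertical axis. Red points belong to the 695 genes called higher and blue points to the 591 called lower in U-HO1. Some genes of the sex chromosomes are not drawn. Differences reach 6.27 for LRRN3 and -5.48 for SULF1.

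The arrays labelled GATA-3 shRNA share no array with this comparison. There 1312 genes were called between the lines (7.13%), 606 higher (3.29%) and 706 lower (3.84%) in U-HO1. The genes called the same way on both sets of arrays numbered 1129, which is 87.8% of those called on the control arrays and 86.1% of those called on the others, and 0 were called in opposite directions. Both comparisons came from the same limma fit of all arrays and share its estimate of the spread, so these calls are not independent. All 1286 genes called on the control arrays had the same sign on the other arrays. A limma test of the difference between both comparisons passed for 0 of 32321 probe sets after adjustment. Of the same 32321 probe sets, 795 had an unadjusted p under 0.05 in this test, and they are not read as differences.

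**Figure D2:**
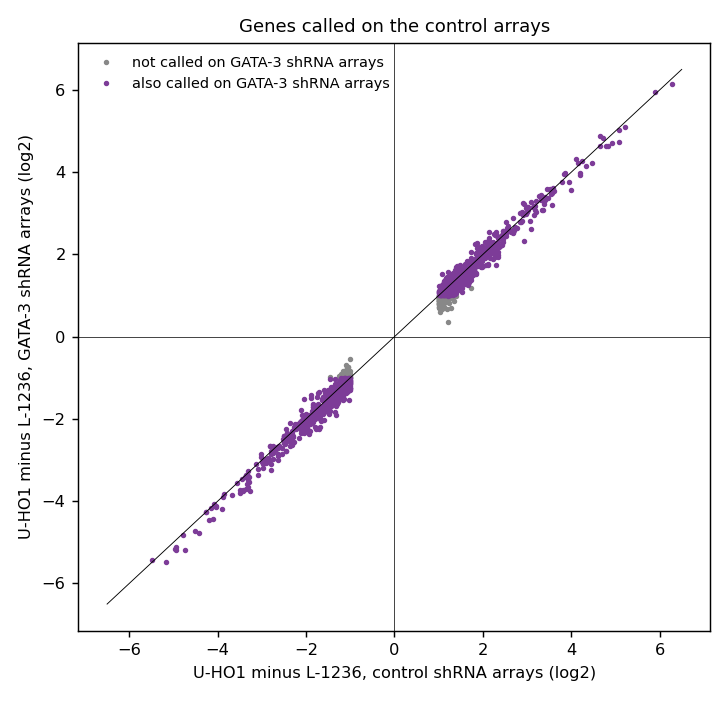
Each point is 1 of the 1286 genes called on the control shRNA arrays, with its difference between the lines (log2) on those arrays on the horizontal axis and on the arrays labelled GATA-3 shRNA on the vertical axis. The points lie in the quadrants of equal sign, close to the diagonal line of equal differences. The colours separate genes called on both sets of arrays (1129 in all) from the others. Some genes of the sex chromosomes are not drawn.

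The 6 genes that mark this comparison were chosen for their difference, and their values are a description. LRRN3, a leucine-rich repeat membrane protein known from neurons, read 12.19, 11.97 and 12.12 on the U-HO1 arrays and 5.82, 5.88 and 5.75 on the L-1236 arrays. SAMSN1, an adaptor protein of lymphocytes that dampens B-cell activation, read 10.37, 10.25 and 10.23 in U-HO1 and 5.45, 5.20 and 4.92 in L-1236. THEMIS, which sets T-cell receptor signal strength during thymocyte selection, read 10.45, 10.30 and 11.003 in U-HO1 and 5.74, 5.72 and 5.96 in L-1236. These genes were high in U-HO1, and the lowest U-HO1 array lay above the highest L-1236 array by several log2 units. SULF1, which removes sulfate groups from heparan sulfate outside the cell, read 6.38, 6.09 and 5.91 in U-HO1 and 11.44, 11.67 and 11.73 in L-1236. ALOX15, a lipoxygenase that oxidises arachidonic acid and is induced by interleukin-4 and interleukin-13, read 7.14, 7.23 and 6.69 in U-HO1 and 11.58, 11.99 and 11.69 in L-1236. CCL2, a chemokine that attracts monocytes, read 6.54, 6.52 and 6.48 in U-HO1 and 10.58, 11.34 and 11.13 in L-1236. For these the order was turned, with L-1236 high and no overlap. The SD within a group of 3 was at most 0.39 for any of the 6 genes, and the difference nearest to 0 was that of CCL2 (-4.51).

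**Figure D3:**
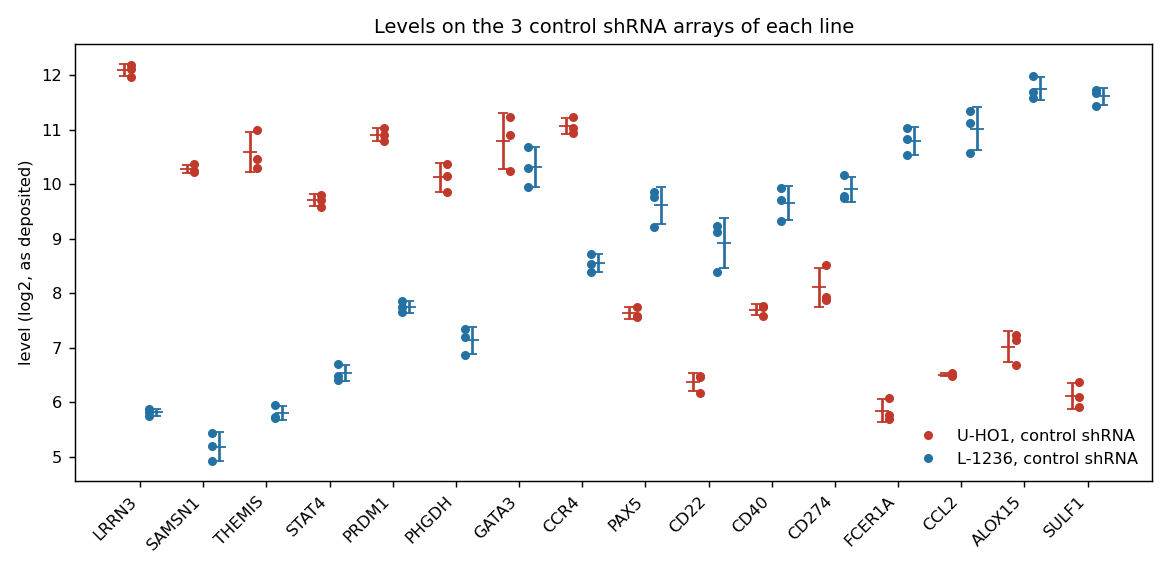
Levels (log2, as deposited) of 16 genes on the 3 control shRNA arrays of U-HO1 (red) and of L-1236 (blue), 1 point per array, with the mean and SD beside the points. Of the genes shown, only GATA3 overlaps between the lines.

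Beyond the 10 most extreme genes each way, the genes next in rank came from several functions. Higher in U-HO1 were DDHD1, a phospholipase of phosphatidic acid, by 4.65, the cadherin CDH8 by 4.32, the HSP70 co-chaperone BAG2 by 4.23, the calcium-binding protein S100A11 by 4.20 and LAPTM5, a lysosomal membrane protein of blood cells, by 4.11. MARVELD2 (3.99), a tight-junction protein, PTPRM (3.83), a receptor tyrosine phosphatase, and MAL (3.80), a membrane protein of T cells and epithelia, followed. MAL is also known from mediastinal B-cell lymphoma. Lower in U-HO1 were adenosine deaminase ADA (-4.25) and GNAQ (-4.19), the alpha subunit of the Gq protein. DPP4 (CD26), a surface peptidase of T cells, read 6.64, 6.43 and 7.15 in U-HO1 and 10.29, 10.86 and 11.14 in L-1236, a difference of -4.03. The drug exporter SLC47A1 (-3.91), the tissue plasminogen activator PLAT (-3.68), the tuft-cell factor POU2F3 (-3.57) and the cytochrome CYP1B1 (-3.50) were lower too. In this band of ranks, 11 to 25 each way, surface molecules and enzymes stood beside 2 small nucleolar RNAs of 1 cluster, SNORD116-20 and SNORD116-21.

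Transcription factors and receptors of the B lineage were called in both directions. Of 22 measured B-lineage factors 4 were called higher and 2 lower in U-HO1, and of 25 genes of the B-cell receptor and its coreceptors 1 and 2. PRDM1, the repressor (Blimp-1) that ends the B-cell programme in plasma cells, read 11.03, 10.79 and 10.91 in U-HO1 and 7.75, 7.65 and 7.86 in L-1236. The ratio was 8.92-fold (difference 3.16, SE 0.17, limma adjusted p = 7.87e-08). PAX5, the factor that maintains B-cell identity, went the other way, with 7.58, 7.76 and 7.57 in U-HO1 and 9.22, 9.86 and 9.76 in L-1236. Its difference was -1.97 (SE 0.18, limma adjusted p = 7.12e-06), and every L-1236 array lay above every U-HO1 array. POU2AF1, the coactivator of octamer factors in B cells, was lower (-1.31). IRF8, a factor of B and myeloid cells, was higher by 1.54, IKZF3 (Aiolos) by 1.37 and ID2, an inhibitor of E proteins, by 1.11. IRF4, at 11.40 ± 0.09 in L-1236 and 11.22 ± 0.28 in U-HO1 (SD, n = 3), differed by -0.18 and was not called. ID2 did not pass without L-1236 replicate 1 or U-HO1 replicate 1 (0.94 and 0.999), with limma differences on the remaining arrays in brackets. ID2 (0.73) did not pass on the arrays labelled GATA-3 shRNA.

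At the surface, CD22, an inhibitory coreceptor of B cells, read 6.49, 6.46 and 6.18 in U-HO1 and 8.40, 9.12 and 9.24 in L-1236, a difference of -2.54 (limma adjusted p = 5.02e-06). CD27, a marker of memory B cells, was lower (-1.49), while CD24, a glycoprotein of immature B cells, was higher by 1.72. The phospholipase PLCG2, which acts below the B-cell receptor, differed by -0.01 (SE 0.08). The tetraspanin CD81 differed by 0.24 and the kinase LYN by 0.61, neither called. The counts of the receptor list, 3 of 25 called (12.0%), compare with 6.99% of all genes.

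Of 36 lineage genes of T cells and innate lymphoid cells, THEMIS was the 1 called higher and CD4 (-1.70) the 1 called lower. This share, 5.56%, compares with 6.99% of all genes. Of 19 measured T-cell factors 3 were higher and 2 lower. TOX, a chromatin protein of thymocytes and exhausted T cells, read 10.55, 10.44 and 10.77 in U-HO1 and 7.16, 7.21 and 7.19 in L-1236. Its difference was 3.40 (SE 0.08, limma adjusted p = 1.28e-10). RUNX1 was higher by 2.07 and RUNX2 by 1.65, and their relative RUNX3 had a difference of -0.73, which passed the p but not the fold. EOMES, a T-box factor of cytotoxic cells, was lower (-1.48) and IKZF2 (Helios, -1.03). The T-cell markers CD7 and SH2D1A differed by -0.02 and 0.16 and were not called. STAT4, which acts downstream of interleukin-12, was 1 of 25 JAK-STAT genes called higher, with levels of 9.72, 9.59 and 9.80 in U-HO1 and 6.49, 6.42 and 6.70 in L-1236. STAT6, the factor of interleukin-4 and interleukin-13 signalling, was the 1 member called lower (-1.03), and STAT3 and STAT5A had differences of 0.93 and 0.64 that stayed under 2-fold. In the JAK-STAT list 8.0% were called, near the 6.99% of all genes. IKZF2 did not pass without L-1236 replicate 1, L-1236 replicate 2 or U-HO1 replicate 1 (-0.996, -0.998 and -0.95), nor did STAT6 without L-1236 replicate 3, U-HO1 replicate 1 or U-HO1 replicate 2 (-0.85, -0.91 and -0.98). IKZF2 (-0.82) did not pass on the arrays labelled GATA-3 shRNA.

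Among 36 measured genes known from Hodgkin tumour cells, 6 were called higher and 9 lower in U-HO1. This is 41.7% of the list against 6.99% of all genes, which was not tested, and the list was chosen with earlier results of these data known. TRAF1, an NF-kB target that binds TNF receptors, read 10.46, 9.85 and 10.16 in U-HO1 and 7.21, 7.23 and 7.23 in L-1236 (difference 2.93). MSC, the helix-loop-helix protein ABF-1 that blocks B-cell factors, read 11.76, 11.53 and 11.85 in U-HO1 and 9.35, 9.45 and 9.50 in L-1236 (difference 2.28). TNFAIP3, the deubiquitinase A20 that limits NF-kB, was higher by 2.21, the actin-bundling protein FSCN1 by 1.39, the lectin LGALS1 by 1.21 and the CD27 ligand CD70 by 1.02. On the other side, LTA, which encodes lymphotoxin alpha, read 9.66, 9.69 and 9.79 in U-HO1 and 11.91, 12.43 and 12.28 in L-1236. CD40, the receptor through which helper T cells activate B cells, read 7.59, 7.77 and 7.75 in U-HO1 and 9.72, 9.32 and 9.93 in L-1236, a difference of -1.96 (SE 0.13, limma adjusted p = 5.21e-07). The interleukin-13 receptor chain IL13RA1 was lower (-1.27). TNFRSF8, which encodes CD30, differed by 0.68 with an adjusted p of 0.00544 by limma, under the 2-fold limit. CD70 did not pass without L-1236 replicate 2 or U-HO1 replicate 3 (0.90 and 0.96). CD70 (0.97) did not pass on the arrays labelled GATA-3 shRNA.

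The ligands of PD-1 were lower in U-HO1. CD274 (PD-L1) read 8.52, 7.88 and 7.93 in U-HO1 and 9.75, 9.78 and 10.18 in L-1236, a difference of -1.79 (SE 0.19, limma adjusted p = 2.01e-05). PDCD1LG2 (PD-L2) was lower (-1.42). The levels did not overlap for either. Of 34 costimulatory and checkpoint molecules 5 were lower and 1 was higher. The self-ligand receptor SLAMF1 differed by -2.97, the lectin LGALS9 by -2.79 and the CD28 ligand CD80 by -1.10. CD47, which tells macrophages not to engulf a cell, was the 1 higher gene (1.70). CD86, the other CD28 ligand, differed by -0.49 and CD58, the ligand of CD2, by 0.91, both past the p and short of the fold.

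Chemokines were called in both directions. Of 35 measured chemokine genes 2 were called higher and 4 lower, or 2 lower without L-1236 replicate 3. CCL1, the ligand of CCR8 on T-helper 2 and regulatory T cells, read 12.09, 11.95 and 12.14 in U-HO1 and 7.79, 8.14 and 7.78 in L-1236, a ratio of 17.8-fold. CX3CL1, the membrane-bound chemokine fractalkine, was higher by 3.34. Besides CCL2, the macrophage-derived chemokine CCL22 was lower (-2.05), CXCL16 (-1.15) and CCL3 (-1.06). CCL22 and CCL17 share the receptor CCR4, and CCL17 had a difference of 0.76 (not called for its size). CCL5 spread widely in L-1236, at 8.92, 9.49 and 11.35 against 11.72, 11.30 and 11.41 in U-HO1, and its difference of 1.55 did not pass (limma adjusted p = 0.0695). Of 20 chemokine receptors 2 were called, both higher, and at an unadjusted p under 0.05 there were 2 higher and 4 lower (limma). Without U-HO1 replicate 1 there was 1. CCR4 itself read 11.04, 10.94 and 11.24 in U-HO1 and 8.54, 8.72 and 8.39 in L-1236, a difference of 2.52 (SE 0.10, limma adjusted p = 6.96e-09). CXCR3, the receptor of T-helper 1 cells, was higher by 1.12, and CCR7 and CXCR4 differed by -0.35 and 0.19 and were not called. CXCL16 did not pass without L-1236 replicate 3 (-0.90), nor did CCL3 without L-1236 replicate 3 or U-HO1 replicate 1 (-0.92 and -0.96), nor did CXCR3 without U-HO1 replicate 1 (0.82). CCL3 (-0.82) and CXCR3 (0.96) did not pass on the arrays labelled GATA-3 shRNA.

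Secreted cytokines had a called share of 9.09%, near the 6.99% of all genes. Of 44 genes, IL5 and IL32 were higher in U-HO1, by 2.35 and 1.25, and the stem cell factor KITLG (-2.10) and IL6 (-1.76) were lower. Of 53 cytokine receptors 3 were called higher and 9 lower. CRLF2, the receptor chain of thymic stromal lymphopoietin, read 10.21, 10.25 and 9.78 in U-HO1 and 6.68, 6.44 and 6.42 in L-1236. IL2RB, the beta chain shared by interleukin-2 and interleukin-15 receptors, was higher by 2.17. The interferon-gamma receptor differed by chain, with IFNGR1 higher by 1.85 and IFNGR2 lower (-1.56). The 3 called receptors of the interleukin-1 family were on the other side. IL1R1, the signalling receptor, was lower (-4.42), the decoy IL1R2 (-1.32) and IL1RL1, the receptor of interleukin-33, at -1.49. CSF2RB, the beta chain shared by the receptors of interleukin-3, interleukin-5 and GM-CSF, read 7.25, 7.01 and 6.87 in U-HO1 and 8.90, 9.25 and 9.80 in L-1236, a difference of -2.27. Its partner IL5RA differed by -0.54, under the fold limit, and IL10RA was lower (-1.99).

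In the TNF family 3 of 40 genes were called higher and 5 lower. TNFSF10, the death ligand TRAIL, read 11.92, 11.66 and 11.46 in U-HO1 and 7.92, 8.45 and 9.89 in L-1236, a difference of 2.93, and its receptor gene TNFRSF10A was higher by 1.39. TNF itself was lower (-1.64) and TNFRSF9 (4-1BB, -1.11). FAS, at an adjusted p of 0.00565 by limma, had a difference of 0.67. In the NF-kB list 3 of 26 were higher and 4 lower. MAP3K14, the kinase NIK of the alternative pathway, was higher by 1.41 beside TRAF1 and TNFAIP3. TRAF5 was lower (-1.43), the A20-binding protein TNIP2 (-1.13) and the paracaspase MALT1 (-1.05). The inhibitor NFKBIA, which is mutated in some Hodgkin tumours, differed by -0.35, and REL and NFKB2 by 0.38 and 0.21, none of them called. The 4 lower calls of the list were 1 without U-HO1 replicate 2. TNIP2 did not pass without U-HO1 replicate 2 (-0.99), nor did MALT1 without U-HO1 replicate 2 (-0.96).

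Receptors of innate immunity were called in both directions. Of 33 pattern recognition and Fc receptor genes 5 were called lower in U-HO1 and 2 higher. FCER1A, the chain that binds IgE on mast cells, read 5.70, 6.09 and 5.77 in U-HO1 and 10.83, 11.03 and 10.53 in L-1236. FCER2 (CD23), the low-affinity IgE receptor of B cells, was lower (-2.32), and FCGR2A, an activating IgG receptor, at -3.43. STING1, the adaptor of cytosolic DNA sensing, was lower (-1.49), and its upstream enzyme CGAS had a difference of 0.85 in the opposite direction, under 2-fold. NOD1 was lower (-1.11). TLR7, the endosomal receptor of single-stranded RNA, was higher by 2.29 and the DNA sensor AIM2 by 1.32. Of 31 myeloid and dendritic genes CD68 (2.23) and ITGAX (1.28) were higher and AOAH, an enzyme that inactivates lipopolysaccharide, was lower (-4.95). The called share of that list was 9.68%, against 6.99% of all genes. The myeloid markers CSF1R, CD14 and MPO are among the list of 5 that had 0 called members. AIM2 did not pass without L-1236 replicate 1 or L-1236 replicate 2 (1.13 with adjusted p = 0.0725 and 1.01 with adjusted p = 0.0668) (limma). NOD1 (-0.95) and AIM2 (0.99) did not pass on the arrays labelled GATA-3 shRNA.

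The genes of antigen presentation were called in both directions. Of 14 class I and peptide-loading genes 0 were called higher and 3 lower in U-HO1 by limma, with a median difference of -0.515, and at an unadjusted p under 0.05 there were 1 and 8. The called genes were the peptide trimming enzyme ERAP2 (-1.48) and both chains of the peptide transporter, TAP1 (-1.23) and TAP2 (-1.35). TAP1 read 10.66, 10.37 and 10.32 in U-HO1 and 11.42, 11.57 and 12.04 in L-1236. B2M, the light chain, differed by -0.38 (limma adjusted p = 0.170) and the loading factor TAPBP by -0.49. The 3 calls became 5 without L-1236 replicate 1, and on the arrays labelled GATA-3 shRNA the list had 6 called members. Of 17 class II genes 5 were higher and 2 lower, with a median of 0.797. HLA-DPB1 was higher by 1.63, HLA-DOA by 1.53, HLA-DMA by 1.22, HLA-DRB5 by 1.03 and the protease CTSS, which processes the invariant chain, by 1.21. HLA-DOB, the partner of HLA-DOA, was lower (-1.83) and HLA-DQA1 (-1.04). CIITA, the master coactivator of class II genes, had a difference of 0.81 (limma adjusted p = 1.02e-05), under the 2-fold limit, and was looked up after its values were seen. On the arrays labelled GATA-3 shRNA 2 members of the class II list were called higher and 2 lower, with a median of 0.713. HLA genes resemble each other and vary in sequence between people, so the readings of their probe sets are uncertain. HLA-DRB5 did not pass without L-1236 replicate 1 (0.96), nor did HLA-DQA1 without L-1236 replicate 3 (-0.73). HLA-DMA (0.89), HLA-DRB5 (0.78) and CTSS (0.95) did not pass on the arrays labelled GATA-3 shRNA. HLA-DPB1 (2 of 3, from 0.30 to 1.63) and HLA-DMA (1 of 2, from -0.63 to 1.22) have several probe sets, and only the given number of them was called.

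The levels of interferon-response genes overlapped between the lines as a group. The mean level of the 43 measured genes was 7.87, 7.71 and 9.49 on L-1236 control replicates 1, 2 and 3 and 8.43, 8.24 and 8.25 on the U-HO1 arrays. L-1236 replicate 3 thus stood above all others and replicates 1 and 2 below. With all arrays the median difference was -0.321, with 5 genes called higher and 1 lower, and without L-1236 replicate 3 the median was 0.36 with 11 higher and 1 lower. Without L-1236 replicate 2 there were 3 higher and 5 lower with a median of -0.631, and without L-1236 replicate 1 there were 3 higher and 2 lower with a median of -0.529. On the arrays labelled GATA-3 shRNA 4 were higher and 6 lower, with a median of -0.618. The genes called with all arrays included HERC6, an interferon-induced ubiquitin ligase homologue (2.14), the membrane protein IFITM2 (1.45), the GTPases MX2 (1.69), GBP3 (1.13) and GBP4 (1.74), all higher, and IFI44L, lower (-1.68). IFITM2 read 9.22, 9.29 and 8.92 in U-HO1 and 7.72, 7.70 and 7.66 in L-1236, with no overlap. IFI44L read 9.65, 9.53 and 11.63 in L-1236 and 8.78, 8.48 and 8.50 in U-HO1. The L-1236 array that was highest for the list was also highest for IFI44L, and without it the difference was -1.003. The class I genes were highest on the same L-1236 array, with list means of 9.54, 9.67 and 10.13 in L-1236 and 9.31, 9.13 and 9.27 in U-HO1. Without it the class I median was -0.459 and the number of calls was 3. MX2 did not pass without L-1236 replicate 1, L-1236 replicate 2 or U-HO1 replicate 3 (1.35 with adjusted p = 0.0812, 1.38 with adjusted p = 0.0682 and 1.63 with adjusted p = 0.0550), nor did GBP4 without L-1236 replicate 1, L-1236 replicate 2, U-HO1 replicate 1 or U-HO1 replicate 2 (1.40 with adjusted p = 0.146, 1.35 with adjusted p = 0.133, 1.40 with adjusted p = 0.144 and 1.69 with adjusted p = 0.0962) (limma). GBP4 (1.19) did not pass on the arrays labelled GATA-3 shRNA.

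Signalling genes differed on several levels of the MAP kinase path. Of 37 genes of AP-1 and MAP kinase feedback 9 were called higher and 3 lower in U-HO1, 32.4% of the list. DUSP6, the phosphatase that dephosphorylates ERK and is induced by it, read 10.18, 10.09 and 9.93 in U-HO1 and 7.46, 7.83 and 6.69 in L-1236, a difference of 2.74 (SE 0.24, limma adjusted p = 4.98e-06). DUSP4, a nuclear ERK phosphatase, was higher by 2.46, the Ras pathway inhibitor SPRED1 by 2.23, PHLDA1 by 2.30 and the AP-1 subunit JUN by 1.45. RASGRP3, an exchange factor that loads Ras with GTP, was higher by 3.20. Feedback inhibitors and an activator of Ras were thus high in the same line. DUSP5, another ERK phosphatase, was lower (-1.16), and so were the Ras-binding proteins RASSF4 (-1.91) and RASSF5 (-1.01). JUNB and BATF3, AP-1 factors abundant in Hodgkin cells, differed by 0.25 and -0.75 and were not called. Of 42 receptor tyrosine kinases 7.14% were called, near the 6.99% of all genes. MET, the receptor of hepatocyte growth factor, was the 1 higher gene, at 12.16, 11.88 and 12.03 in U-HO1 and 9.26, 9.54 and 9.24 in L-1236. ERBB4 (-1.85) and MERTK (-1.07) were lower. DUSP5 did not pass without L-1236 replicate 3 or U-HO1 replicate 3 (-0.93 and -0.90), nor did RASSF5 without L-1236 replicate 2, L-1236 replicate 3 or U-HO1 replicate 2 (-0.97, -0.91 and -0.94), nor did MERTK without U-HO1 replicate 2 (-0.97).

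In phosphoinositide signalling 4 of 35 genes were higher and 4 lower. PIK3CG, the catalytic subunit of the PI3-kinase that G-protein receptors activate, was higher by 4.73, and PIK3R5, its regulatory subunit, was lower (-1.70). The phosphatases INPP4B and INPP4A were higher by 2.69 and 1.37, and PLCL1 (-2.80) and the kinase SGK1 (-2.06) were lower. G-protein subunits were called in both directions. GNG11, a gamma subunit, read 9.65, 9.49 and 9.70 in U-HO1 and 5.63, 5.65 and 5.72 in L-1236, while GNAQ read 5.68, 5.81 and 5.48 in U-HO1 and 9.54, 9.99 and 9.999 in L-1236. GNA15, a Gq-type alpha subunit of blood cells, was lower (-1.31). The protein kinases C PRKCB, PRKCQ and PRKCH were higher by 2.12, 1.46 and 1.32. RGS13 and RGS16, which switch G proteins off, were lower (-2.07 and -2.06). In all, 5 of 40 genes of this list were higher and 5 lower.

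Receptors for lipids and nucleotides followed, with 6 of 57 higher and 4 lower. The leukotriene receptors were low in U-HO1, with CYSLTR1 at 5.98, 5.67 and 5.86 in U-HO1 and 9.20, 9.36 and 8.91 in L-1236 and CYSLTR2 at 5.74, 5.81 and 5.55 in U-HO1 and 10.44, 10.80 and 10.75 in L-1236. The ATP-gated channel P2RX7 was lower (-2.001). GPR183, the oxysterol receptor that positions B cells in the follicle, was higher by 2.09, S1PR1, the receptor that guides lymphocytes out of lymph nodes, by 1.76 and ADGRG1, an adhesion receptor of cytotoxic lymphocytes, by 2.15. Of 23 eicosanoid genes PLA2G4A, which releases arachidonic acid, was higher by 1.81 and ALOX15 was the 1 lower gene. This share, 8.7%, compares with 6.99% of all genes. LTA4H, an enzyme of leukotriene synthesis, differed by 0.28 (limma adjusted p = 0.256).

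The adhesion profile gave 5 higher and 6 lower genes of 47. ITGAL, the alpha chain of LFA-1, read 9.59, 8.83 and 9.49 in U-HO1 and 6.47, 6.36 and 6.11 in L-1236. Its ligand gene ICAM3 was higher by 2.71, and ICAM1, another ligand, differed by -0.06 and was not called. ITGA2, a collagen receptor chain, was higher by 1.32. CD44, the receptor of hyaluronan, read 9.20, 8.51 and 8.39 in U-HO1 and 11.03, 11.36 and 11.16 in L-1236, a difference of -2.48 (SE 0.25, limma adjusted p = 1.41e-05). CD99, a surface glycoprotein of leukocyte migration, was lower (-1.21), PECAM1 (-2.48) and VCAM1 (-1.22). TSPAN7, a tetraspanin, was higher by 2.84. Surface molecules of leukocyte contact were thus called in both directions. VCAM1 did not pass without L-1236 replicate 3 (-0.92).

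Matrix and protease genes gave 5 higher and 5 lower of 58. The plasminogen activators differed in opposite directions, with PLAU (urokinase) higher by 1.72 and PLAT lower. SERPINB9, the inhibitor of granzyme B, read 10.50, 10.34 and 11.01 in U-HO1 and 7.63, 8.04 and 8.41 in L-1236. LAMC1, a laminin chain, was higher by 1.94. MMP7 (-3.41), COL19A1 (-2.36), fibronectin FN1 (-2.03) and the metalloprotease inhibitor TIMP1 (-1.32) were lower. Among 38 heparan sulfate and proteoglycan genes EXT1, which builds the chain, was higher by 1.44. Besides SULF1, the core protein SDC3 (-1.50) and the sulfotransferase NDST1 (-1.45) were lower. Guidance molecules gave 3 higher and 5 lower of 46. CNTN1, a neural adhesion molecule, was higher by 3.02 and SEMA5A by 2.19, and the semaphorins SEMA6A, SEMA4A and SEMA7A were lower (-2.50, -1.61 and -1.54). SEMA4D (CD100), a semaphorin of lymphocytes, was lower (-1.59). SEMA4D (1 of 2, from -1.59 to -0.31) has several probe sets, and only the given number of them was called.

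Notch and Wnt genes gave 1 higher and 5 lower of 56. The lower ones included MFNG, a glycosyltransferase that modifies Notch (-1.85), the Notch ligands JAG2 (-1.25) and DLL1 (-1.10), WNT5B (-1.66) and AXIN2, a target of Wnt signals (-1.07). The Wnt coreceptor LRP6 was the higher one (1.07). In the TGF-beta, BMP and activin list 2 of 43 were higher and 2 lower, with GDF11 at 1.08, the SMAD inhibitor SKIL at -1.09 and the ubiquitin ligase SMURF2 at -1.05, beside ID2. The share of this list, 9.30% called, lay near the 6.99% of all genes, and without L-1236 replicate 3 there were 2 calls. AXIN2 did not pass without L-1236 replicate 1 (-0.93), nor did LRP6 without U-HO1 replicate 3 (0.98), nor did SKIL without L-1236 replicate 3 (-0.88), nor did SMURF2 without L-1236 replicate 3 or U-HO1 replicate 2 (-0.97 and -0.98).

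Across 107 forkhead, SOX, KLF, nuclear receptor and other factors 8 were higher and 7 lower. TFEC, a relative of the lysosomal factor TFEB, read 9.79, 9.60 and 9.94 in U-HO1 and 6.48, 6.22 and 6.29 in L-1236. The Myb family member MYBL1 was higher by 2.78 and FOXN3 by 1.94. NR3C1, the glucocorticoid receptor, read 10.71, 10.54 and 10.99 in U-HO1 and 8.39, 8.70 and 9.26 in L-1236, a difference of 1.96 (SE 0.18, limma adjusted p = 6.95e-06). WWTR1 (TAZ), a coactivator of the Hippo pathway, was lower (-3.32), EPAS1 (HIF-2 alpha, -2.07), ZBTB38 (-2.01), FOXP2 (-1.83) and the ETS factor FLI1 (-1.23). HIF1A, the other hypoxia factor, differed by 0.23 and was not called. Of 66 homeobox genes 4 were higher and 2 lower, 9.09% against 6.99% of all genes. ZEB1 was higher by 1.40, and its relative ZEB2 had a difference of -0.90 in the opposite direction, under 2-fold. HOXD8 was higher by 1.03, and HOXD10 and HOXD11 of the same cluster were lower (-2.45 and -1.96). HOXD8 did not pass without L-1236 replicate 2, L-1236 replicate 3 or U-HO1 replicate 2 (0.999, 0.96 and 0.96).

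**Figure D4:**
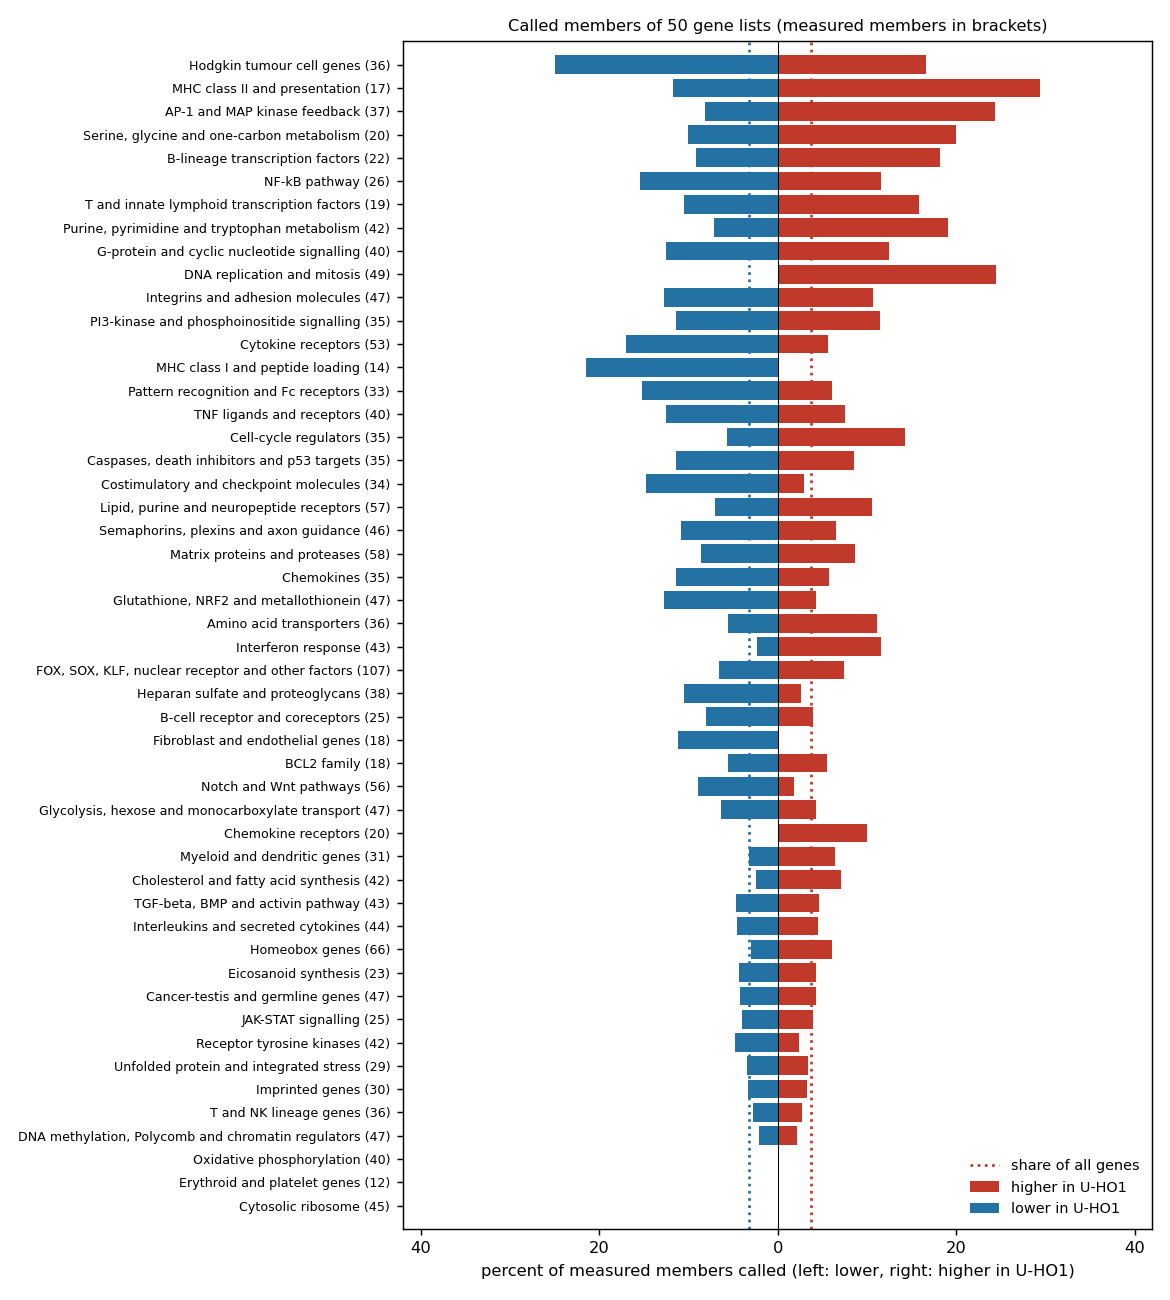
For each of 50 gene lists, the bar to the right gives the percentage of its measured members called higher in U-HO1 (red) and the bar to the left the percentage called lower (blue), with the number measured in brackets. The dotted lines mark the shares of all genes, 3.78% higher and 3.21% lower. The lists were chosen with earlier results of these data known, and the bars are counts without a test.

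Genes of DNA replication and mitosis were called in 1 direction. Of 49 measured genes 12 were higher and 0 lower in U-HO1 by limma, with a median difference of 0.631, and at an unadjusted p under 0.05 there were 31 and 2. MCM4, a subunit of the replicative helicase, was higher by 1.58, the spindle checkpoint kinase TTK by 1.57, the mitotic kinase AURKB by 1.51, HMMR by 1.54 and the motor protein KIF11 by 1.32. AURKB read 11.19, 11.03 and 11.18 in U-HO1 and 9.44, 10.07 and 9.36 in L-1236. The mean level of the list was 8.87, 9.53 and 8.95 on L-1236 replicates 1, 2 and 3 and 9.75, 9.62 and 9.87 on the U-HO1 arrays. L-1236 replicate 2 thus lay close to U-HO1. Without it 19 members were called and the median was 0.855, and on the arrays labelled GATA-3 shRNA 9 were called with a median of 0.558. Of 35 cell-cycle regulators 5 were higher and 2 lower, and without L-1236 replicate 2 there were 8 higher. E2F7, CCND2, CDK1 and CCNA2 were higher by 2.15, 1.62, 1.45 and 1.26, and the inhibitor CDKN1A (p21) was lower (-1.11).

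Survival genes gave a pair of calls among 18 members of the BCL2 family. BCL2L11, which encodes the death-promoting protein BIM, read 7.50, 6.79 and 7.48 in U-HO1 and 9.28, 9.69 and 9.53 in L-1236, a difference of -2.25 (SE 0.24, limma adjusted p = 2.41e-05). BCL2L10, a protective member, was higher by 2.40. MCL1 and BCL2L1, both protective, differed by -0.68 and -0.32 and were not called. Of 35 caspases, death inhibitors and p53 targets 3 were higher and 4 lower, or 2 lower without L-1236 replicate 3. MDM2, which degrades p53 and is its target, was higher by 1.54, the repair protein DDB2, another p53 target, by 1.52. CDKN1A, also a p53 target, was on the other side, as was TP73 (-1.20), a relative of p53.

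Genes that make and take up amino acids were called in both directions. Of 20 serine, glycine and one-carbon genes 4 were higher and 2 lower, 30.0% of the list. PHGDH, the first enzyme of serine synthesis, read 9.86, 10.15 and 10.38 in U-HO1 and 7.35, 6.87 and 7.20 in L-1236, a ratio of 7.94-fold (difference 2.99, SE 0.15, limma adjusted p = 5.09e-08). PSAT1, the next enzyme of the same path, was lower (-1.32). GLDC, which cleaves glycine, was higher by 1.65 and SHMT1, the cytosolic enzyme that turns serine into glycine, by 1.60, while SHMT2, its mitochondrial form, differed by -0.56 under the fold limit. The enzymes of 1 path thus did not move together. Of 36 amino acid transporters 4 were higher and 2 lower. SLC38A1, a carrier of glutamine and other neutral amino acids, read 11.96, 11.95 and 12.03 in U-HO1 and 6.69, 7.40 and 7.39 in L-1236. SLC1A4, which carries serine and alanine, was higher by 2.13 and SLC7A5, the light chain of the large neutral amino acid exchanger, by 1.32. SLC38A5 was lower (-1.95). IMDM and RPMI 1640 differ in their amino acids, and the part of the medium in these values cannot be told apart from that of the line.

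Nucleotide and tryptophan metabolism gave 8 higher and 3 lower of 42. ENTPD1 (CD39), which degrades extracellular ATP, read 9.27, 8.85 and 9.04 in U-HO1 and 6.11, 5.95 and 6.15 in L-1236, and ADA, which removes adenosine, read 7.17, 7.23 and 7.36 in U-HO1 and 11.66, 11.30 and 11.55 in L-1236. ENTPD1 and ADA were therefore on opposite sides. IDO1, the enzyme that opens the tryptophan ring, was higher by 2.46, and KYNU, which splits kynurenine, by 2.06. KMO, which hydroxylates kynurenine, was lower (-3.31), and QPRT, at the end of that path, at -1.23. NAMPT, the salvage enzyme of NAD synthesis, was higher by 1.24, ASS1, which makes argininosuccinate, by 1.98 and DPYD by 1.16. DPYD did not pass without U-HO1 replicate 3 (0.98).

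Glycolysis and hexose or monocarboxylate transport gave 2 higher and 3 lower of 47. The monocarboxylate carrier SLC16A4 read 6.11, 6.09 and 6.14 in U-HO1 and 10.96, 11.11 and 11.78 in L-1236. ENO3, the muscle form of enolase, was higher by 1.97, and ALDOC and PFKM were lower (-1.98 and -1.37). The glycolytic genes GAPDH and TPI1 differed by 0.13 and 0.10 and were not called. Oxidative phosphorylation had 0 called members of 40, though 16 were higher and 0 lower at an adjusted p under 0.05 by limma, with a median of 0.254, and at an unadjusted p under 0.05 there were 20 and 1. The cytosolic ribosome had 0 called of 45 by limma, with 18 higher and 5 lower at an unadjusted p under 0.05. Its median was 0.16 as deposited, 0.025 with quantile normalization and 0.007 on the arrays labelled GATA-3 shRNA. For oxidative phosphorylation the last 2 settings gave medians of 0.174 and 0.146. Of 42 cholesterol and fatty acid genes the desaturase FADS1 (2.89) led 3 higher genes, and MYLIP, which removes the LDL receptor, was the 1 lower (-1.17). This share, 9.52%, compares with 6.99% of all genes. Glutathione, NRF2 and metallothionein genes gave 2 higher and 6 lower of 47. GSTM1, a glutathione transferase whose gene is deleted in many people, read 8.19, 8.62 and 8.72 in U-HO1 and 11.67, 11.85 and 11.23 in L-1236. NQO1, a target of NRF2, was lower (-1.35) and PRDX1 (-1.23), and GSTO1 and MT2A were higher by 1.46 and 1.41. MT2A (1 of 2, from 0.91 to 1.41) has several probe sets, and only the given number of them was called.

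Among 359 solute carriers 15 were higher and 13 lower, 7.80% against 6.99% of all genes. After SLC38A1, the highest differences belonged to the mitochondrial carrier SLC25A21 (3.55) and the bicarbonate carrier SLC4A7 (2.28). After SLC16A4 and SLC47A1, the anion exchanger SLC26A4 (-2.62) and the sodium-calcium exchanger SLC8A1 (-2.43) were lowest. SLCO3A1, an organic anion transporter, was the 1 called member of 12 in its class, at 11.01, 10.82 and 10.89 in U-HO1 and 7.72, 7.86 and 7.94 in L-1236. Of 43 ABC transporters both main drug efflux pumps of this class were higher, ABCG2 by 2.22 and ABCB1 (P-glycoprotein) by 1.81. ABCB1 read 8.87, 8.38 and 8.38 in U-HO1 and 6.69, 6.59 and 6.92 in L-1236. ABCC1, the other well-known pump, differed by -0.01, and ABCA13, ABCA8 and ABCB6 were lower (-3.85, -2.12 and -1.17). Of 54 ion and lipid pumps 7.41% were called, near the 6.99% of all genes. The sodium pump beta chain ATP1B1 was higher by 3.41 and the plasma membrane calcium pump ATP2B4 was lower (-3.38). ABCB6 did not pass without L-1236 replicate 1 (-0.998).

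Ion channels were called in both directions. Potassium channels gave 4 higher and 6 lower of 87, led by KCNH7 (4.66) and KCNQ5 (3.59) among the higher and KCND3 (-1.96) among the lower. Sodium, calcium and TRP channels gave 3 higher and 6 lower of 95. The voltage-gated calcium channel chains CACNA1D, CACNA1E and CACNA1G were lower (-3.02, -2.71 and -2.31), and the mechanosensitive channel PIEZO2 (-2.82). TRPM6, a magnesium channel, was higher by 2.34. CACNA1D read 6.79, 6.85 and 6.76 in U-HO1 and 9.73, 9.99 and 9.74 in L-1236. Chloride channels, aquaporins and gap junctions gave 2 higher and 2 lower of 66, with ANO10 at 3.47 and CLIC2 at -2.95. Each of these classes had a called share of 6.06% to 11.5%, close to or somewhat above the 6.99% of all genes.

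Among non-coding RNAs, 1 imprinted cluster was called in 1 direction. Of 20 SNORD116 small nucleolar RNAs, which are made from the introns of 1 long imprinted transcript on chromosome 15 that only the paternal copy expresses, 9 were higher and 0 lower in U-HO1, with 18 higher and 0 lower past the p alone and 19 and 0 at an unadjusted p under 0.05 (limma). The median of the cluster was 0.924. SNORD116-14 read 9.87, 10.19 and 10.29 in U-HO1 and 4.83, 4.77 and 5.10 in L-1236, and SNORD116-20 read 9.60, 10.01 and 10.15 in U-HO1 and 5.57, 5.54 and 5.24 in L-1236. Other copies included SNORD116-28 (0.56) and SNORD116-29 (0.85), which were not called for their size. Copies of SNORD116 resemble each other in sequence, so their probe sets are not independent readings. The neighbouring SNORD115 cluster had 0 called of 20 by limma, and an unadjusted p under 0.05 was reached by 0. Of the imprinted protein genes of the same region, MAGEL2, NDN and UBE3A had differences of -0.02, 0.004 and 0.64, and none was called. These 3 were picked after their values were seen. In the whole list of 30 imprinted genes PEG10 was higher (1.59) and TP73 lower, 6.67% against 6.99% of all genes.

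Other non-coding RNAs had called shares of 6.67% for other box C/D RNAs, 0.0% for box H/ACA RNAs and 12.5% for small Cajal body RNAs. For LINC RNAs and antisense RNAs they were 3.43% and 5.49%, against 6.99% of all genes. Of 75 other box C/D small nucleolar RNAs 5 were higher, led by SNORD50B (1.55) and SNORD50A (1.52), and 0 of 61 box H/ACA RNAs were called by limma, with 6 higher and 20 lower at an unadjusted p under 0.05. The 5 calls of the box C/D RNAs were 3 without L-1236 replicate 1 or 3 and without U-HO1 replicate 1 or 3. The median of the box H/ACA RNAs was -0.111 with all arrays but 0.001 without L-1236 replicate 1. On the arrays labelled GATA-3 shRNA it was 0.029. The small Cajal body RNAs SCARNA9L and SCARNA9 were higher by 1.99 and 1.79, 2 of 16 in that class. Of 204 long intergenic RNAs with LINC names 1 was higher, LINC01554 by 2.24, and 6 were lower, led by LINC00417 (-1.61). Of 182 antisense RNAs 6 were higher and 4 lower. LY86-AS1 was lower (-2.67), and IL6-AS1, which lies opposite IL6, was lower (-1.10) together with it. TENM3-AS1 was higher by 1.67. How the probe sets separate the strands was not checked here. IL6-AS1 did not pass without L-1236 replicate 3 (-0.95).

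MicroRNA genes were lower in U-HO1 where they were called, for 2 genes and 1 host transcript. Of 173 measured microRNA genes, host transcripts left out, 2 were called, both lower, and at an adjusted p under 0.05 by limma 2 were higher and 9 lower. MIR142, the precursor gene of a microRNA of blood cells, read 8.17, 7.74 and 8.19 in U-HO1 and 9.03, 8.59 and 9.48 in L-1236, a difference of -1.0003 (SE 0.26, adjusted p = 0.0125 by limma). MIR186 was lower (-1.01). The host transcript MIR17HG, which carries 6 microRNA precursors of the oncogenic miR-17-92 cluster, read 7.08, 6.96 and 7.23 in U-HO1 and 8.47, 8.20 and 8.28 in L-1236, a difference of -1.23 (SE 0.14, adjusted p = 4.06e-05 by limma). The probe sets read the precursor or the host RNA, not the mature microRNA, so that mature levels are unknown. MIR21, widely studied in tumours, differed by 0.45 and was not called. The mature sequences of the products of MIR17HG and MIR142 are shown because the seed, bases 2 to 8 from the 5′ end and written in capitals, decides which messages a microRNA recognises. They are from RefSeq on GRCh38.p14, at chr13:91350618-91351382 (plus strand) for the first 6 and chr17:58331245-58331303 (minus strand) for both arms of miR-142. MIR142 did not pass without L-1236 replicate 3 or U-HO1 replicate 2 (-0.78 with adjusted p = 0.0557 and -0.85 with adjusted p = 0.0559), nor did MIR186 without L-1236 replicate 3, U-HO1 replicate 1 or U-HO1 replicate 2 (-0.92, -0.98 and -0.95) (limma). MIR142 (-0.96) did not pass on the arrays labelled GATA-3 shRNA.
miR-17-5p: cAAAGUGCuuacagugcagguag
miR-20a-5p: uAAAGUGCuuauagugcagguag
miR-18a-5p: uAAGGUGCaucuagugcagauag
miR-19a-3p: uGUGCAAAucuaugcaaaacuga
miR-19b-3p: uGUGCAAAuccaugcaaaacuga
miR-92a-3p: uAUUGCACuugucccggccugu
miR-142-3p: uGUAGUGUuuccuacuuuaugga
miR-142-5p: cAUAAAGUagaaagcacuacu
The 6 products of MIR17HG fall into 4 seed groups. MiR-17-5p and miR-20a-5p share AAAGUGC, miR-19a-3p and miR-19b-3p share GUGCAAA, and miR-18a-5p and miR-92a-3p have AAGGUGC and AUUGCAC alone. The arms of miR-142 have the seeds GUAGUGU and AUAAAGU.

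Some further gene families were counted too. The called shares were 8.51% for cancer-testis and germline genes, 11.9% for protocadherins, 14.5% for histones and 6.67% for ZNF genes. The share of all genes was 6.99%. Of 47 cancer-testis and germline genes 2 were higher and 2 lower. FAM9C, a testis gene on the X chromosome, read 11.59, 11.26 and 11.52 in U-HO1 and 5.68, 5.71 and 5.27 in L-1236, and TEX15, which acts in meiosis, was higher by 2.09. SYCP2, a component of meiotic chromosome axes, was lower (-2.76) and PRAME (-1.01). Of 42 protocadherins 5 were higher and 0 lower by limma (at an unadjusted p under 0.05, 11 and 2), among them PCDHB14 (2.05), PCDHB9 (1.50), PCDHB8 (1.31) and PCDHB13 (1.15), which lie in 1 cluster of similar genes on chromosome 5. Because such genes resemble each other, their probe sets may not read them apart. Of 69 histone genes 6 were higher and 4 lower, with H1-4 at 1.84 and H3C11 and H1-5 at -3.26 and -2.76. Of 540 zinc finger genes with ZNF names 9 were higher and 27 lower. ZNF532 (-2.50), ZNF382 (-2.46), ZNF43 (-2.04) and ZNF136 (-1.74) were the lowest. Of 360 olfactory receptors 0 were called by limma, with 16 higher and 13 lower at an unadjusted p under 0.05. PRAME did not pass without L-1236 replicate 3 or U-HO1 replicate 2 (-0.95 and -0.90).

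Further classes had few calls except for a class that joins guanylate-binding and GIMAP proteins. Of 11 guanylate-binding and GIMAP proteins, immune GTPases, 4 were higher and 0 lower in U-HO1 by limma (at an unadjusted p under 0.05, 6 and 0). Its calls included GIMAP8 (1.88) and also GBP3 and GBP4, which were counted above among the interferon-response genes. Without L-1236 replicate 2, U-HO1 replicate 1 or U-HO1 replicate 2 there were 2 calls. Of 29 genes of the unfolded protein response SEL1L (1.72), a part of the degradation complex of the endoplasmic reticulum, was higher and the stress factor ATF5 (-1.67) was lower. Of 47 DNA methylation, Polycomb and chromatin genes ARID5B was higher and the histone demethylase KDM5B (-1.49) was lower. Of 53 cytochromes P450 0 were higher and 2 lower by limma, CYP1B1 and CYP27C1 (-1.17), and at an unadjusted p under 0.05 there were 5 and 7. Of 124 keratins and keratin-associated genes 2 were higher and 1 lower, and of 65 ligand-gated channels 1 and 1. These shares, from 2.42% to 6.90%, lay below the 6.99% of all genes, and that of the GTPases was 36.4%. CYP27C1 did not pass without L-1236 replicate 3 (-0.97).

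Called genes lay side by side in places. Counting runs of at least 3 neighbouring measured genes called the same way, 24 runs were found, 14 higher and 10 lower in U-HO1, with 82 genes in all. Runs of at least 4 numbered 8, and all were higher in U-HO1. On chromosome 7, TFEC, TES (1.11), CAV1 (2.64), MET (2.67) and CAPZA2 (1.06) stood in a row. CAV1 encodes the coat protein of caveolae, and its levels were 10.73, 10.66 and 11.21 in U-HO1 and 7.53, 8.54 and 8.61 in L-1236. On chromosome 9 the run held ANXA1 (2.29), RORB (1.40), TRPM6, C9orf40 (1.02) and CARNMT1 (1.08). On chromosome 10 ARID5B (1.19) and RTKN2 (1.73) led another. Chromosome 6 held 3 of the 8. ECHDC1 (2.01), C6orf58 (1.71), THEMIS and PTPRK (2.06) formed one, PREP (1.23), PRDM1, ATG5 (1.17) and CRYBG1 (1.77) the next, and ELOVL4 (1.20), TTK, BCKDHB (2.50) and TENT5A (1.37) the last. PTPRK is a receptor phosphatase and ATG5 a protein of autophagy. The order of genes is that of GRCh38.p14. CAPZA2 did not pass without L-1236 replicate 1 or U-HO1 replicate 3 (0.97 and 0.95), nor did C9orf40 without L-1236 replicate 3, U-HO1 replicate 1 or U-HO1 replicate 2 (0.92, 0.97 and 0.995). TES (0.83), CAPZA2 (0.91), C9orf40 (0.95) and CARNMT1 (0.98) did not pass on the arrays labelled GATA-3 shRNA.

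Both extremes of the differences between neighbouring genes lay on chromosome 6. Of its 974 measured genes 92 were higher (9.45%) and 54 lower (5.54%), against 3.78% and 3.21% of all genes. Cut into 356 blocks of 50 neighbouring measured genes, a choice made after seeing the data, the genome had block medians from -0.422 to 0.685. The block from MAP3K7 to MICAL1, which holds PRDM1, had a median of 0.685, with 46 of 50 genes positive and 15 called higher and 0 lower. The block from VNN1 to STX11 had a median of 0.501 with 18 called higher and 1 lower. The block from AGER to SMIM29, which includes the MHC class II genes, had a median of -0.422 with 5 called higher and 8 lower, and the block from CDSN to PRRT1 before it one of -0.323 with 1 and 8. On the arrays labelled GATA-3 shRNA the medians of the blocks from MAP3K7, VNN1 and AGER were 0.649, 0.446 and -0.509. Inside the AGER to SMIM29 block the class II genes were called in both directions. HLA-DPB1, HLA-DOA, HLA-DMA and HLA-DRB5 were higher, and HLA-DOB and HLA-DQA1 were lower. Of the 50 genes of this block 12 had positive differences.

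**Figure D5:**
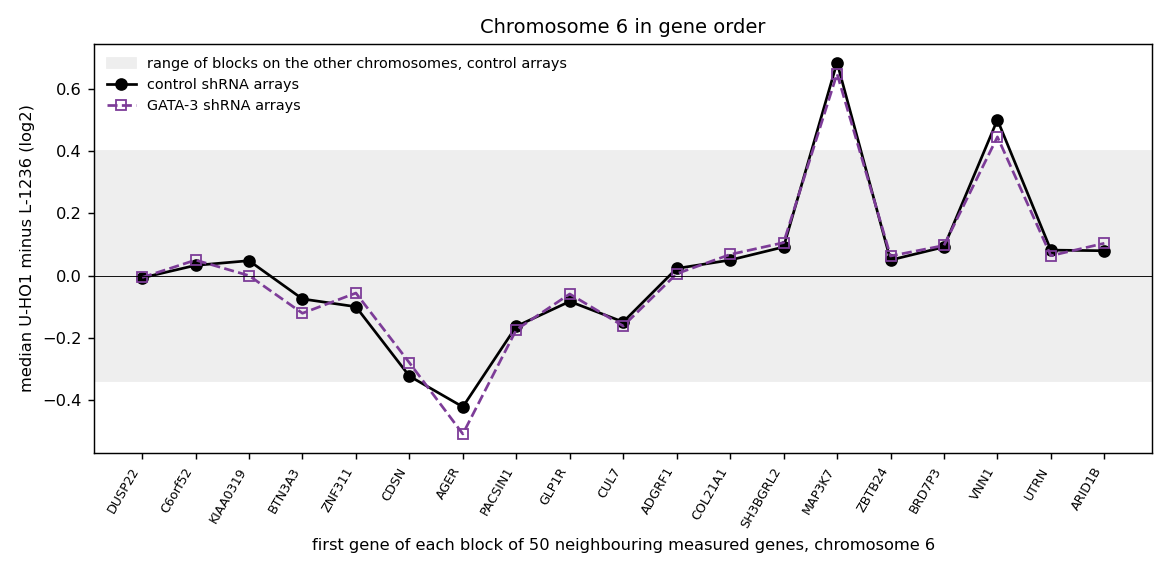
Median difference between the lines (log2) for each of the 19 blocks of 50 neighbouring measured genes on chromosome 6, in gene order, with the first gene of each block on the horizontal axis. Black circles are the control shRNA arrays, open squares the arrays labelled GATA-3 shRNA, and the grey band is the range of blocks on the other chromosomes. The blocks that start at MAP3K7 and VNN1 lie above the band at 0.685 and 0.501, and the block that starts at AGER lies below it at -0.422.

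Start sites poor in CpG were more common among the genes that differed most, a description that was not tested. RefSeq windows of 300 bases, 250 before and 50 after each start, were found for 14212 of the genes measured, 20075 windows in all on GRCh38.p14. Fewer than 10 CpG dinucleotides were found in 29.0% of these windows, in 38.6% of the windows of genes called at least 4-fold higher and in 47.8% of those of genes called at least 4-fold lower. Over all called genes the shares were 28.7% and 33.0%. The GATA-type motif AGATAA, searched on both strands, occurred in 7.93% of all windows, in 9.64% of windows of genes at least 4-fold higher and in 12.6% of those at least 4-fold lower. TATAAA occurred in 9.06%, 10.7% and 16.5%. These are shares of windows, with several windows for some genes, and a match of letters is not a site of binding. The groups of at least 4-fold are small, with 197 windows of higher and 182 windows of lower genes. Both hold more CpG-poor windows than all genes, and motif shares were not compared at equal CpG content. Whether AGATAA or TATAAA differs apart from CpG content was therefore not tested. The AP-1 type motif TGACTCA was present in 3.99% of all windows, in 4.06% of those of genes at least 4-fold higher and in 2.20% of those of genes at least 4-fold lower. In the same order, the E-box CACGTG was present in 8.33%, 7.11% and 5.49%, and the STAT-type motif TTCNNNGAA in 6.92%, 7.11% and 8.79%. Among all called genes the shares of the higher and the lower ones were 7.67% and 8.34% for AGATAA, 10.1% and 10.3% for TATAAA and 4.96% and 3.83% for TGACTCA. They were 6.99% and 6.84% for CACGTG and 7.22% and 7.39% for TTCNNNGAA.

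The windows of 4 immune receptor and ligand genes with large differences in both directions are shown as examples, picked because each holds AGATAA or its reverse complement TTATCT, which is in capitals. FCER1A (chr1:159302086-159302385, plus strand) and CYSLTR2 (chr13:48653679-48653978, plus strand) were low in U-HO1, and CCL1 (chr17:34363184-34363483, minus strand) and CCR4 (chr3:32951394-32951693, plus strand) were high.
FCER1A: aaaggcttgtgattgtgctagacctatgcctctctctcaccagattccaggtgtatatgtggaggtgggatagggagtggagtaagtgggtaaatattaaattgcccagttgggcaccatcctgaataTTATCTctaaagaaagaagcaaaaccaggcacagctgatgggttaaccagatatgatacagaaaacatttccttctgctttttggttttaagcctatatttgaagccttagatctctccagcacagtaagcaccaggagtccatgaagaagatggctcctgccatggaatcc
CYSLTR2: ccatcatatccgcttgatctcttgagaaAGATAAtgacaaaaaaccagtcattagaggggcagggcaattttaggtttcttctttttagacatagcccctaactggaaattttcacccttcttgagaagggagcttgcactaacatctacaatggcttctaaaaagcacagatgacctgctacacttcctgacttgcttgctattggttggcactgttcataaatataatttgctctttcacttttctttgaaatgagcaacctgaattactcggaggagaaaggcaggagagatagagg
CCL1: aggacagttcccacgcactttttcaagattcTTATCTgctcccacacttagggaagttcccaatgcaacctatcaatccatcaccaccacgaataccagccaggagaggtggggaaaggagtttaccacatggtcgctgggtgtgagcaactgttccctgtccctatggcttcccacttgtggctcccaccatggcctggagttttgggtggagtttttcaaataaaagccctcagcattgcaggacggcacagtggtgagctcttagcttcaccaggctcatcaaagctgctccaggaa
CCR4: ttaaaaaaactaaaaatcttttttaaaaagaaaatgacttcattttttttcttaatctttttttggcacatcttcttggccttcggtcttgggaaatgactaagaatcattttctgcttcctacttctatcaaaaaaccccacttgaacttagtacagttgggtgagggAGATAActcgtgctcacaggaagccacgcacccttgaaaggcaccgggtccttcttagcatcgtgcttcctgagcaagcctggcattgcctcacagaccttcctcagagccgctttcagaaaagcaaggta
The window of FCER1A holds 0 CpG, that of CYSLTR2 2, that of CCL1 4 and that of CCR4 6, so all of them belong to the CpG-poor group.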

How the data were processed

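RNA of sorted cells of both lines was amplified, labelled and read on 12 whole-transcript arrays, 3 for each line and shRNA. The authors' deposited table holds 1 value per probe set and array, processed with R 2.8.1 per the submitters' processing notes. These log2 values (3.86 to 14.0) were made by the authors before they were deposited; the scale was read from their range, and the background correction and normalization are not given in the sources used. All 32321 probe sets were fitted as deposited, with no filter, in limma 3.58.1 under R 4.3.3 with a mean for each of 4 groups and 8 residual degrees of freedom. P-values were adjusted by Benjamini-Hochberg over all probe sets, and genes with an adjusted p under 0.05 and at least 2-fold were called. The fit was tested on simulated data with 200 changed probe sets.

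Of the probe sets, 19158 had 1 symbol in the platform annotation, 1388 had several and 11775 are unnamed here; 1984 genes were listed in 50 lists, of which 1798 were measured. The members and lists were chosen with earlier results of these data known, and the lists overlap. Genes named are, in each list or class, up to 6 called genes each way with the largest difference and up to 3 others with the highest mean, the markers, ranks 11 to 25 each way and the 8 longest runs of neighbours. Genes outside this rule are pointed out. Same-numbered control arrays of the lines deviated together with r = 0.054, -0.17 and 0.26, so their numbers were not taken to pair them. For the arrays labelled GATA-3 shRNA r was 0.14, 0.21 and 0.15, over 0.1 each. The reported fit is unpaired for both sets of arrays, and the replicate number was used only as a block in an alternative. Alternatives were another scaling (quantiles or medians), fewer probe sets or arrays, array weights, another prior, other limits, the dimmest probe set per gene and a replicate block. The number of arrays limits the precision. Gene order, microRNA and promoter sequences are RefSeq's on GRCh38.p14.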

Additional observations from a re-analysis of the deposited data

How the results depend on the processing

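Of all 1286 called genes, 264 lost the call without 1 of the arrays. The 302 called among the 346 genes named kept their direction under the alternatives run for them, and 33 lost the call in at least 1 of those on the control arrays. Of the named genes that were not called, ABCC1, CD7, CXCR4, ICAM1, MAGEL2, NDN, PLCG2 and TPI1 changed sign in at least 1 alternative. Centring each array on its median put IKZF2, MIR142, MIR186, PRAME and RASSF5 under 2-fold, and quantile normalization C9orf40, CAPZA2, ID2, MIR186 and TES. A limma test against the 2-fold limit itself called 509 genes on the control arrays (264 higher, 245 lower in U-HO1) and 524 on the arrays labelled GATA-3 shRNA (250 and 274). The submitters' looser criteria, a false discovery rate of 25% and 1.5-fold, gave 3196 (1756 and 1440) and 3172 (1460 and 1712). Runs of neighbouring genes numbered 24 with at least 3 members and 8 with at least 4. Leaving out 1 array at a time gave 1262 to 1403 genes on the control arrays (622 to 794 higher, 553 to 647 lower) and 1285 to 1387 on the others (578 to 687 and 688 to 725). With the replicate number as a block, 1283 genes were called on the control arrays (693 and 590) and 1310 on the arrays labelled GATA-3 shRNA (605 and 705), and GBP4 was the 1 named gene that lost its call (limma adjusted p = 0.0631). In these pairing checks no control pair of numbers held throughout. The other alternatives gave counts within 1.5 times those reported. The table holds no background signal, so it is not known which dim probe sets lie above background.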
